A study of Drosophila melanogaster with 12 samples.

Results

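In the fly annotation many protein-coding genes still go by a CG number, the serial label given when the genome was first annotated, because no mutant, enzyme or pathway had yet supplied a name. The genes described here are the CG-numbered genes whose RNA was nearly confined to glia among 4 sorted cell populations of the adult Drosophila melanogaster optic lobe. Of 16272 gene names in the count table, 7085 had the form CG and digits, and 97 of them met the rule. They were chosen by these measured levels themselves: a mean over the glia libraries of at least 50 CPM (counts per 1000000 counts of a library), at least 30 times the mean of each other population, with 8 names left out beforehand, of which 1 would have met it. The glia level and its ratio to the other populations are therefore given as a description and carry no test. Of the names of any kind, 273 passed both thresholds.

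The study made bulk RNA sequencing libraries from T4 neurons, Pm2 neurons, neurons at large and glia, 3 libraries each. Per the labels, Gal4 driver lines were crossed to UAS-Red Stinger, a red fluorescent protein held in the nucleus, in strain Canton-S, and fluorescent cells were sorted from dissociated brains of 3-day-old adults. The neuron libraries are named for the Elav driver, a pan-neuronal gene, and the glia libraries for the Repo driver, a glial homeodomain gene. All 4 groups carried the reporter, and each differed from the others in its driver line, so population and driver line cannot be told apart. The source label of every library, glia included, reads as neurons of the optic lobe. T4 cells detect moving bright edges, and Pm2 is a class of local interneurons of the proximal medulla. In sorted bulk samples, fewer cells of a type and less RNA per cell cannot be told apart, and nothing in the labels says that the libraries of a group came from separate crosses or sorts, so p-values measure the spread between these libraries.

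Fly glia fall into a few classes: surface glia that seal the brain from the blood, cortex glia around neuronal cell bodies, and astrocyte-like and ensheathing glia in and around the neuropil. They import sugars and amino acids, clear and recycle transmitters, handle lipids and pass metabolites to neurons, so that transporters and metabolic enzymes are well known among glial genes. The pan-glial and pan-neuronal markers fitted the sort labels. Of 10528 genes tested, 30.9% were called higher and 37.8% lower in glia than in neurons (edgeR quasi-likelihood test, Benjamini-Hochberg adjusted p below 0.05). All 8 pan-glial genes were called higher and all 12 pan-neuronal genes lower. Of 11 astrocyte-like and ensheathing genes, 9 were called higher and 1 (trn) lower. Of 11 surface glia genes tested, 7 were called higher and 1 (svp) lower, and Mdr65 was at 0 in all glia libraries. All 4 cortex glia genes were called higher. Of 14 named glial transporters tested, 7 were called higher and 2 (kcc and out) lower. In each glia library the pan-neuronal list still summed to 539 to 719 CPM, against 27954 to 28374 CPM in neurons. The 8 pan-glial genes summed to 771 to 1077 CPM in the neuron libraries, 298 to 357 CPM in T4 and 352 to 397 CPM in Pm2, against 24268 to 27556 CPM in glia. Of 11 fat body genes, 5 (Lsp1alpha, Lsp1beta, Fbp1, Fbp2 and to) were at 0 in all glia libraries. CG3523 alone held 682 to 809 of the list's 688 to 817 CPM there. Of the 4 fat body genes tested, 2 (CG3523 and Yp3) were called higher in glia than in neurons and none lower. Lsp1gamma, which was not tested, stood at 2.10, 0 and 1.60 CPM in glia and at a mean of 0.015 CPM in neurons. Of 12 haemocyte genes, 4 (He, eater, Sr-CI and PPO1) were at 0 in glia. The list summed to 151 to 205 CPM there, against 249 to 288 CPM in neurons. The gene crq alone held 146 to 180 CPM of the glia sum, and Pxn 111 to 129 CPM of the neuron sum. Of the 6 haemocyte genes tested, 2 (crq and NimC2) were called higher in glia than in neurons and 3 lower. NimC1, which was not tested, stood at 10.5, 0 and 1.60 CPM in glia and at a mean of 0.015 CPM in neurons. Of 7 muscle genes tested, 1 (Mhc) was called higher in glia and none lower. Of 6 trachea genes none was at 0 in all glia libraries, and serp alone held 38.2 to 44.5 of the list's 41.1 to 48.1 CPM. All 6 were tested, and 1 (serp) was called higher in glia than in neurons and none lower. The part of cells other than glia in the results below was not tested.

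The 97 genes took up 7.51%, 6.69% and 6.94% of all counts in the 3 glia libraries. They took up 0.0259%, 0.0393% and 0.0330% in the neuron libraries, 0.0135%, 0.0107% and 0.0103% in T4, and 0.00797%, 0.00844% and 0.00813% in Pm2. No library of another population reached the lowest glia library for any of the 97. The ratio threshold nearly ensures this, since the glia libraries of a gene differed at most 3.77-fold. The glia mean ran from 51.3 to 16362 CPM with a median of 188 CPM, and 12 genes reached 1000 CPM. The ratio to the highest other population ran from 30.1 to 53910 with a median of 119, and 58 genes reached 100, 24 reached 300 and 4 reached 1000. The median rose to 152 under TMM scaling, fell to 100.35 without neuron library 1 and was 146 without neuron library 2. Neurons were the highest other population for 76 of the genes, Pm2 for 12 and T4 for 9. The plot of glia level against the highest other population shows both thresholds and how far most genes lay above them.

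**Figure D1:**
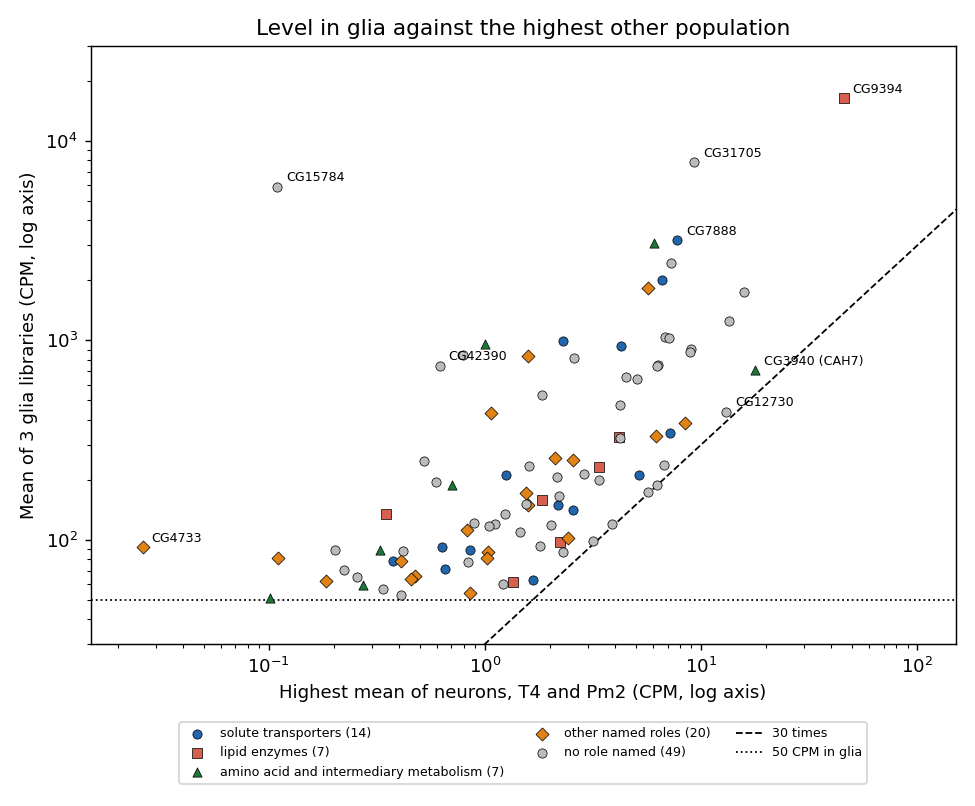
Mean CPM of the 3 glia libraries (y axis, log) against the highest mean of neurons, T4 and Pm2 (x axis, log) for the 97 genes, 1 point each, by role group; the dashed line marks 30 times and the dotted line 50 CPM in glia. CG15784 stands apart at the left, with 5896 CPM in glia and 0.109 CPM in the next population, and CG9394 has the highest level at 16362 CPM.

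A few genes made up most of this RNA. CG9394, of the glycerophosphodiester phosphodiesterase family, enzymes that split glycerophosphodiesters, alone held 23.2% of the glia counts of the 97. It stood at 17268.5, 15960 and 15858 CPM in glia (mean 16362 ± 787, SD, n = 3). The next population was neurons, at 41.4, 52.5 and 42.7 CPM, followed by T4 at 26.2, 17.1 and 13.6 CPM and Pm2 at 6.66, 5.23 and 2.42 CPM. It was also first per length, at 7077 ± 340 CPM per kb of exon sequence (SD, n = 3). CG31705 was next at 9356, 6002 and 8107 CPM in glia and 8.25, 9.93 and 9.59 CPM in neurons. CG15784 followed with 3987, 7880 and 5822 CPM in glia. The 3 leading genes together held 42.8% of the glia counts of the 97, and the 8 leading genes 60.6%.

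CG15784 was the most confined of all. Its 970402 counts in the glia libraries stood against 12 in the neuron libraries, at 0.257, 0.0449 and 0.0261 CPM, and 2 in Pm2, and none in T4. The ratio of glia to neurons was 53910, and its 95% counting interval on pooled counts (Clopper-Pearson) ran from 33651 to 113761. Neuron library 1 held 9 of the 12 counts, and without it the ratio was 165918, above that interval. Against T4, where 3 counts over the 3 libraries would be 0.0217 CPM, the level in glia was at least 271363-fold higher. Intervals and floors of this kind cover counting error only, since reads without molecular identifiers are not independent molecules. No role is assigned to CG15784 here.

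CG4733, a B'' regulatory subunit of protein phosphatase 2A, was second in ratio although low in glia, at 93.8, 94.1 and 88.1 CPM. It had 3 counts in the neuron libraries, all in library 3, and none in T4 or Pm2. The ratio to neurons was 3520 with a pooled counting interval of 1235 to 17513, and the glia level was at least 4234-fold that of T4 and 4957-fold that of Pm2. CG42390 came next, with a ratio of 1212, at 763, 699 and 780 CPM in glia and 0.657, 0.539 and 0.653 CPM in neurons. CG3328 stood at 957, 710 and 874 CPM in glia and had a ratio of 1076 to its highest other population, T4. Tdh (CG5955) and CG31705 followed with ratios of 955 and 845. These genes show that a high ratio was reached both at high and at low levels in glia.

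At the other end, the genes just inside the ratio threshold were CG44325 at 30.1, CG12926 at 30.5 and CG32354 at 31.0. Just outside lay CG9336 at 27.4, CG9686 at 26.6 and CG42666 at 26.2, all with glia means of 64.5 to 72.7 CPM. By glia level, Bcat (CG1673, 51.3 CPM), CG2930 (52.6 CPM) and TTLL6B (CG5987, 54.3 CPM) lay just inside. CG34220 (49.2 CPM), CG14687 (47.8 CPM) and CG3394 (47.1 CPM) met the ratio and missed the level. CG14687 had a ratio of 146 and Bcat one of 504, so the level threshold cut through genes with large ratios.

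All 97 genes were annotated as protein coding. By the Ensembl annotation of BDGP6.54, which gave the same coordinates as the RefSeq Release 6 table for the 97, 24 lay on the X chromosome, 16 on 2L, 16 on 2R, 18 on 3L and 23 on 3R. The X held 24.7% of them and 15.7% of all protein-coding names placed. The union of their exons spanned a median of 2118 bases (481 to 8363), against 1755 bases for all protein-coding names placed. In that annotation 25 of the 97 now carry a name of their own. A role or protein family was assigned to 48 genes, from those names, from older synonyms or, where neither says it, from general knowledge of the family; 49 have none here. The span of another gene overlaps 44 of them, on the opposite strand for 39, and exons of another gene share bases with the exons of 27. The library kit does not mark strand, so reads from shared exon bases cannot be told apart. The largest shares of exon bases were 61.6% in CG10527, with an antisense RNA, and 38.8% in CG44325, with CG10970 on the same strand. Among the 12 genes above 1000 CPM, CG7888 shared 9.05% with CG6321 and CG43693 shared 33 bases with lncRNA:CR45119. CG9394 lies within the span of ktub on the same strand and shares no exon base with it; ktub had 933 CPM in glia, 41.0 CPM in neurons and 24.8 CPM in T4.

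Some of the genes sit side by side. Within 20000 bases of one another lay 16 of the 97, or 16.5%, in 7 groups. Of 674 other CG genes with a glia mean of at least 50 CPM, 7.42% lay within that distance of one of the 97, and of all other protein-coding names placed 4.81% did. The map of these groups shows the distances and levels.

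**Figure D2:**
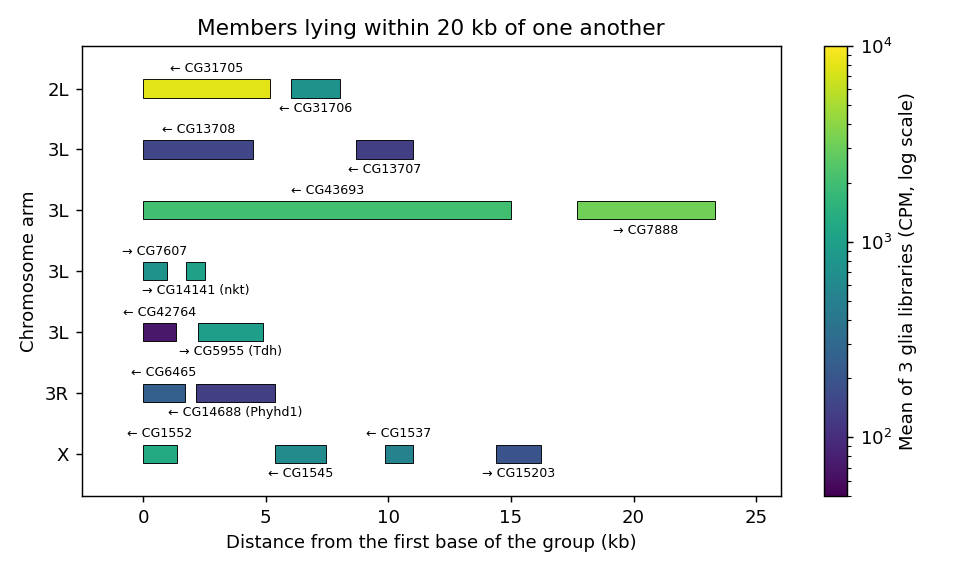
The 7 groups of genes within 20 kb of one another, each row a group on the chromosome arm named at the left, with distance in kb from the first base of the group on the x axis; bars are gene spans, arrows give the strand and colour the mean CPM in glia (log scale). The X chromosome group holds 4 genes, the others 2 each, and levels within a group differ, as for CG31705 at 7822 CPM and CG31706 at 752 CPM.

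The X group lies at chrX:11052171-11068379 and holds CG1552, CG1545, CG1537 and CG15203, with glia means of 1244 ± 451, 643 ± 88.3, 534 ± 92.1 and 195 ± 23.98 CPM (SD, n = 3). CG1552 varied most, at 1686, 785 and 1261 CPM, whereas CG15203 stood at 211, 207 and 167 CPM. The first 3 are on the minus strand and CG15203 on the plus strand. The single other annotated gene in the span, the non-coding lncRNA:CR45614, had 0.497 CPM in glia. In neurons the 4 genes stood at 13.4, 5.04, 1.83 and 0.594 CPM in the same order.

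CG31705 and CG31706 lie head to tail on the minus strand at chr2L:11523021-11531052, 832 bases apart. On 3L, CG43693 and CG7888 lie 2663 bases apart on opposite strands (chr3L:11036358-11059659), and both encode amino acid transporters of the SLC36 family. Another pair on 3L holds CG7607 (741 ± 74.1 CPM) and nkt (CG14141, 1038 ± 72.7 CPM; SD, n = 3) on the plus strand. Both lie inside the span of Plod, which is on the other strand and had 409 CPM in glia and 22.3 CPM in neurons, a ratio of 18.4. Tdh (CG5955) and CG42764 are 902 bases apart on 3L at 954 and 70.4 CPM, CG13708 and CG13707 are 4199 bases apart on 3L at 151 and 134 CPM, and CG6465 and Phyhd1 (CG14688) are 485 bases apart on 3R at 250 and 135 CPM.

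Solute transporters were the largest group with a role, 14 genes that summed to 8564 ± 1169 CPM in glia (SD, n = 3). Their levels ran from 62.6 to 3189 CPM and their ratios from 37.4 to 430. CG7888, of the SLC36 family, stood at 3690, 2783 and 3096 CPM in glia and at 5.83, 11.2 and 6.14 CPM in neurons. CG43693, its neighbour and relative, stood at 2227, 1733 and 2044 CPM in glia. Glia library 1 was the highest and library 2 the lowest for both.

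**Figure D3:**
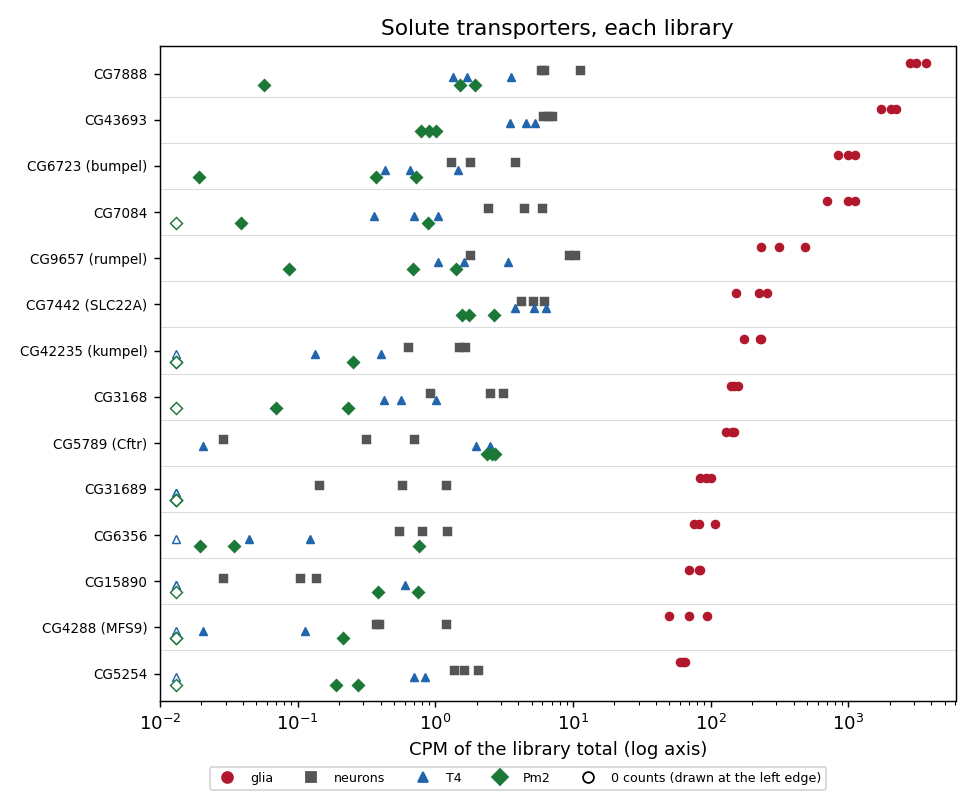
CPM in each of the 12 libraries (x axis, log) for the 14 solute transporters, by population; open symbols at the left edge are libraries with 0 counts. Glia libraries of every transporter lie to the right of all others, as the ratio threshold nearly ensures. They run from 49.8 CPM for MFS9 to 3690 CPM for CG7888, while the order of neurons, T4 and Pm2 differs between genes.

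The sodium-coupled SLC5A family supplied bumpel (CG6723), rumpel (CG9657) and kumpel (CG42235), described in ensheathing glia of the fly brain. Bumpel stood at 1125, 995 and 844 CPM in glia, rumpel at 486, 232 and 315 CPM and kumpel at 227, 173 and 231 CPM. Per kb of exon the order was the same, with 497 CPM per kb for bumpel, 135 for rumpel and 25.2 for kumpel. Rumpel was the least confined of the 3, with a ratio of 48.1 against 168 for kumpel and 430 for bumpel. From the SLC22 family of organic ion transporters came CG7084 (936 ± 210 CPM), SLC22A (CG7442, 211 ± 54.4 CPM), CG3168 (149 ± 9.48 CPM) and CG6356 (88.6 ± 17.2 CPM; SD, n = 3). Cftr (CG5789), the fly chloride channel of the ABC family, stood at 130, 144 and 148 CPM in glia. The remaining 4 transporters were the ABC transporter CG31689 (92.1 CPM), the major facilitator proteins CG15890 (78.4 CPM) and MFS9 (CG4288, 71.4 CPM) and the mitochondrial carrier CG5254 (62.6 CPM). CG31689 had 80 counts in neurons and none in T4 or Pm2.

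Enzymes of amino acid and intermediary metabolism numbered 7, with a sum of 5144 ± 463 CPM in glia (SD, n = 3). CG4829, a gamma-glutamyl transferase family member, the kind of enzyme that opens glutathione outside the cell, led with 3449, 2612 and 3212 CPM. Tdh (CG5955) and Gcat (CG10361) encode the consecutive enzymes that turn threonine into glycine, threonine dehydrogenase and glycine C-acetyltransferase. Tdh stood at 875, 1133 and 855 CPM in glia and Gcat at 63.3, 56.7 and 58.3 CPM. In neurons Tdh stood at 1.89, 0.0225 and 0.862 CPM and Gcat at a mean of 0.272 CPM. Bcat (CG1673), the aminotransferase of branched-chain amino acids, was near the level threshold at 47.7, 47.0 and 59.2 CPM but had 12 counts in neurons and none in T4 or Pm2. CAH7 (CG3940), a carbonic anhydrase, was among the least confined of the 97, with a ratio of 40.0 and neuron libraries at 19.99, 15.1 and 18.2 CPM. The other 2 were naz (CG31235, 188 CPM) and the UDP-glycosyltransferase Ugt49B1 (CG4302, 88.5 CPM). The group is a broad one, since CAH7 and Ugt49B1 are not enzymes of amino acids. Its sum and its calls cover all 7.

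Lipid enzymes also numbered 7 and summed to 17374 ± 1017 CPM (SD, n = 3), nearly all of it CG9394. PLCXD (CG14945), a phospholipase C X-domain protein, stood at 469, 124 and 388 CPM in glia. CG3376, listed under the older name aSMase, an acid sphingomyelinase of the lysosome, stood at 282, 136 and 279 CPM. Both were low in glia library 2. Acsx3 (CG11407, an acyl-CoA synthetase relative) had 159 CPM, Phyhd1 (CG14688) 135 CPM, the lipid phosphate phosphatase relative CG11426 97.6 CPM and the fatty acid desaturase relative CG9743 61.6 CPM.

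Glycan enzymes were 3: Chpf (CG43313) at 65.9 ± 17.0 CPM and Chsy (CG9220) at 77.9 ± 15.7 CPM, which build chondroitin chains together, and the beta-mannosidase beta-Man (CG12582) at 113 ± 12.2 CPM (SD, n = 3). Chpf and Chsy had 63 and 52 counts in neurons. Among cell surface and secreted proteins, bdl (CG16857, borderless), an adhesion protein of the immunoglobulin superfamily, stood at 1993, 1599 and 1922 CPM in glia. The spondin relative CG17739 (431 CPM) and the Ly6 family protein CG31676 (330 CPM) complete that group. The 4 peptidases and relatives were CG6357 (385 CPM), Nepl5 (CG9507, 250 CPM), CG2493 (171 CPM) and CG9377 (81.0 CPM). CG9377, a serine protease homologue, had no count in neurons or T4 and 17 counts in Pm2, all in 1 library. It was at least 3179-fold higher in glia than in neurons.

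The ecdysteroid kinase-like family, enzymes related to those that phosphorylate steroid hormones of insects, gave 3 genes: CG10513 at 927, 813 and 768 CPM, CG31974 at 182, 122 and 144 CPM and CG32195 at 91.5, 80.3 and 72.2 CPM in glia. The 7 regulators were low, with glia means from 54.3 CPM for the tubulin ligase relative TTLL6B (CG5987) to 258 CPM for the homeodomain gene CG34367. Between them lay CG10126 (103 CPM), an EF-hand calcium-binding protein, CG4733 (92.0 CPM), SmydA-3 (CG43129, 86.3 CPM), the zinc finger gene CG42741 (63.8 CPM) and CG5921 (62.3 CPM). None of the 7 reached 1000 CPM. The 49 genes with no role assigned ran from 52.6 to 7822 CPM, held 48.1% of the glia counts of the 97, and included 7 of the 12 genes above 1000 CPM. Of these 7, CG8547 stood at 2667, 2373 and 2331 CPM, CG8369 at 1717, 1622 and 1878 CPM and CG4409 at 1015, 1090 and 967 CPM. Among the 49 were also blo (CG8740), at a mean of 65.0 CPM in glia, and Phs (CG7372), at 59.8 CPM.

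The glia libraries differed at least 2-fold for 8 of the 97 genes. The coefficient of variation over the 3 glia libraries had a median of 14.8% for the 97 and 14.5% for the 2530 other genes with at least 50 CPM in glia. The highest library was a median of 1.33 times the lowest for the 97. PLCXD (CG14945) varied most, at 55.1%, followed by CG1572 at 52.4% (76.9, 158 and 61.6 CPM) and CG9377 at 45.2% (84.1, 116 and 42.9 CPM). CG42764 varied least, at 1.70% (70.4, 69.3 and 71.7 CPM), followed by CG13707 at 3.03% and CG4733 at 3.69%. Of the 8, 5 were highest in glia library 1 and 3 in library 2, so the variable genes did not all move the same way.

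**Figure D4:**
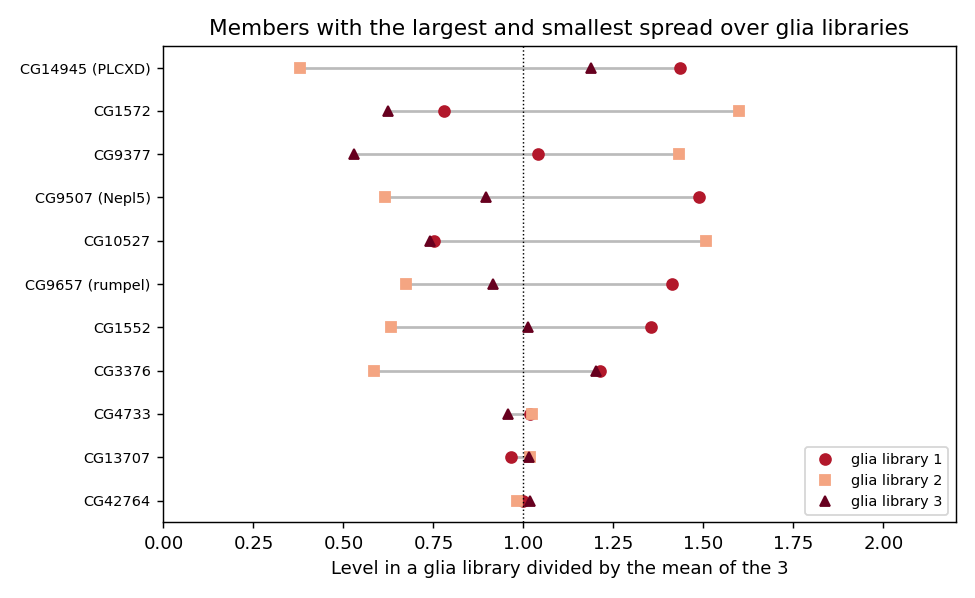
Level in each glia library divided by the mean of the 3 (x axis) for the 8 genes with at least a 2-fold spread and the 3 genes with the smallest coefficient of variation. PLCXD, Nepl5, rumpel, CG1552 and CG3376 are lowest in library 2 and highest in library 1, while CG1572, CG9377 and CG10527 are highest in library 2.

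Over the 97, glia library 1 was the highest for 55, or 56.7%, and library 2 for 29, or 29.9%. Of the 2530 other genes the corresponding shares were 29.1% and 49.5%. The 12 surface glia genes summed to 9474, 6630 and 7964 CPM in the 3 libraries and the 8 pan-glial genes to 27556, 24268 and 25445 CPM. Both lists hold nrv2, at 6724, 4234 and 5142 CPM, and without it they summed to 2750, 2396 and 2822 CPM and to 20832, 20034 and 20304 CPM. The astrocyte-like and ensheathing genes stood at 32820, 31769 and 30530 CPM and the cortex glia genes at 3169, 2991 and 2761 CPM, so the 4 lists were not lowest in the same library. The pan-neuronal list stood at 674, 719 and 539 CPM. Their part in the spread of the 97 was not tested.

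For the 97, tests are reported only between neurons, T4 and Pm2, and not against glia, whose level chose the genes. The rule also used these other populations, since it caps each of their means at the glia mean divided by 30. All 97 passed the filter on low counts through the glia libraries, and 86 would have passed on the 9 other libraries alone. The levels were low: the median over the 97 was 1.55 CPM in neurons, 0.583 CPM in T4 and 0.272 CPM in Pm2. No count was found for 1 gene in neurons, 11 in T4 and 11 in Pm2. The 6 with none in both T4 and Pm2 were CG31869, CG15611, CG15040, CG31689, CG4733 and Bcat. Of these CG31869 had the highest neuron level, at 0.914, 3.06 and 2.12 CPM, so that neurons were at least 93.4-fold above T4 and 109-fold above Pm2. Put as a share of the glia level, the medians were 0.734%, 0.182% and 0.0909%. For 24 genes of the glial class lists with at least 50 CPM in glia the corresponding medians were 0.812%, 0.420% and 0.162%. The rule did not cap these 24, and some were not confined to glia. Their largest shares, all of Nrx-IV, were 138% in neurons, 320% in T4 and 164% in Pm2. Eaat2 stood at 130%, 166% and 152%, and drpr at 46.1%, 40.0% and 62.3%. The share in neurons was not one value for the 97: it ran from 0 for CG9377 and 0.00185% for CG15784 to 2.96% for CG12730 and 3.32% for CG44325.

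Compared with neurons, T4 libraries held less of these RNAs. Of the 97, 45, or 46.4%, were called lower and 1 higher in T4 (edgeR quasi-likelihood test, Benjamini-Hochberg adjusted p below 0.05), when 14.5% of all genes tested were called lower and 8.67% higher. The median log2 difference was -1.78 over the 97 and -0.06 over all genes tested, and -1.73 over 96 of them from group means with genes at 0 set to their bound. Of the 86 that pass the filter without glia, 40 (46.5%) were lower and 1 higher, against 14.96% and 9.33% of the 9782 genes that do so; 5 of the remaining 11, all low in count, were among the lower calls. Without T4 library 2 the calls over the 97 fell to 29 lower and 1 higher. The pan-glial list summed to 298 to 357 CPM in T4 and 771 to 1077 CPM in neurons, and 4 of its 8 genes were called lower and none higher. Eaat1, at 383 to 666 CPM in neurons and 4.32 to 6.46 CPM in T4, and drpr, at 230 to 261 CPM and 187 to 231 CPM, carried most of these sums. The other 6 genes summed to 156 to 193 CPM in neurons and 101 to 120 CPM in T4. The part of the list in the calls was not tested.

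CG12730 had the smallest adjusted p. It stood at 14.1, 12.4 and 12.5 CPM in neurons and at 1.49, 1.84 and 2.79 CPM in T4, a log2 difference of -2.73 ± 0.21 (SE; adjusted p = 1.06e-05, edgeR). CG12177 stood at 6.14, 7.03 and 6.72 CPM in neurons and 1.49, 0.629 and 0.532 CPM in T4, a log2 difference of -2.97 ± 0.30 (SE). CG10433 stood at 6.43, 12.8 and 7.66 CPM in neurons and 1.65, 0.809 and 1.06 CPM in T4. The groups did not overlap for any of these 3. CG12730 shares 26.7% and CG10433 20.8% of its exon bases with an antisense RNA. Reads from these shared bases cannot be told apart. nkt (CG14141) stood at 4.37, 9.17 and 6.87 CPM in neurons and 1.96, 1.39 and 1.69 CPM in T4. CG10462 was the single gene called higher in T4, at 3.03, 2.90 and 0.953 CPM against 0.228, 0.494 and 0.235 CPM in neurons (log2 difference 2.74 ± 0.57, SE; adjusted p = 0.00598, edgeR). That T4 level was still 37.6 times lower than in glia.

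Pm2 libraries also held less of these RNAs than neurons did. Of the 97, 59, or 60.8%, were called lower and 5, or 5.15%, higher in Pm2, when 20.1% of all genes tested were called lower and 15.5% higher (edgeR, adjusted p below 0.05). The median log2 difference was -2.88, against -0.08 over all genes tested. Of the 86, 53 (61.6%) were lower and 5 higher, against 20.7% and 16.7% of the 9782, with a median log2 difference of -2.68. This comparison shares its neuron libraries with that of T4. Of the pan-glial list, 6 of 8 genes were called lower and 1 higher, and without Eaat1 and drpr it summed to 33.5 to 56.5 CPM in Pm2. CG12730 led again, with 0.554, 0.409 and 0.381 CPM in Pm2 (log2 difference -4.74 ± 0.24, SE; adjusted p = 9.72e-08, edgeR). CG43693 stood at 6.63, 7.08 and 6.06 CPM in neurons and 1.003, 0.895 and 0.782 CPM in Pm2. CG10126 had 207 counts in neurons and none in Pm2, which made neurons at least 94.5-fold higher. In Pm2, nkt stood at 1.06, 1.304 and 1.26 CPM.

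The 5 genes called higher in Pm2 were TTLL6B, CG8547, CG3376, CG1572 and Cftr. TTLL6B (CG5987), of a family that adds glutamate chains to tubulin, stood at 1.04, 0.564 and 0.953 CPM in Pm2 and 0.286, 0.247 and 0.261 CPM in neurons (log2 difference 1.78 ± 0.34, SE; adjusted p = 0.00299, edgeR). CG8547 stood at 2.99, 5.19 and 13.5 CPM in Pm2 and 1.03, 0.494 and 2.56 CPM in neurons. CG3376, the acid sphingomyelinase, stood at 3.20, 4.46 and 2.48 CPM in Pm2 and 0.943, 0.629 and 1.05 CPM in neurons. The lowest Pm2 library lay above the highest neuron library for these 3, and also for CG1572 and Cftr. CG1572 stood at 2.70, 3.11 and 3.72 CPM in Pm2 and 0.5998, 1.69 and 0.810 CPM in neurons, a call that was lost without Pm2 library 3, neuron library 1 or neuron library 3. Cftr, named because few genes were called, stood at 2.35, 2.70 and 2.57 CPM in Pm2 and 0.0286, 0.697 and 0.314 CPM in neurons, and its call held without neuron library 2 and was lost without each other library in turn.

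**Figure D5:**
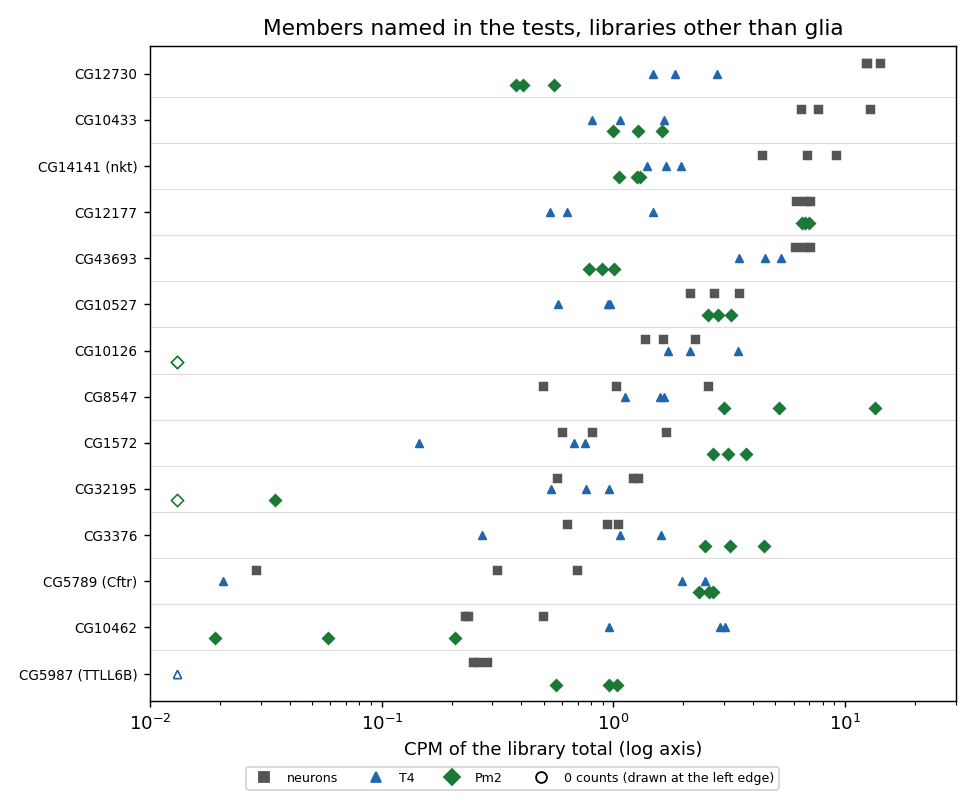
CPM in each of the 9 libraries other than glia (x axis, log) for the genes named in the tests between neurons, T4 and Pm2; open symbols at the left edge are libraries with 0 counts. CG12730, CG10433, nkt and CG43693 have their neuron libraries farthest right, CG8547, CG1572, CG3376 and TTLL6B their Pm2 libraries, and CG10462 its T4 libraries.

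Between T4 and Pm2, 18 of the 97, or 18.6%, were called higher in T4, and 10, or 10.3%, were called higher in Pm2. Of all genes tested, 18.0% and 18.4% were. The median log2 difference was 0.72, against 0.00 over all genes, and 0.93 from group means with genes at 0 set to their bound. It was 0.19 without T4 library 1 and 0.37 without Pm2 library 3. All 28 calls were among the 86, 20.9% higher in T4 and 11.6% higher in Pm2, against 19.2% and 19.6% of the 9782. Of the 8 pan-glial genes 4 were called higher and 2 lower in T4 than in Pm2, and of the 11 astrocyte-like and ensheathing genes 6 and 2; their part was not tested. CG43693 stood at 5.28, 3.48 and 4.52 CPM in T4 and 1.003, 0.895 and 0.782 CPM in Pm2 (log2 difference 2.14 ± 0.19, SE; adjusted p = 6.92e-06, edgeR). CG10126 had 333 counts in T4 and none in Pm2, at least 131-fold higher. CG32195 stood at 0.764, 0.539 and 0.953 CPM in T4 and had 2 counts in Pm2.

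Higher in Pm2 than in T4 were CG12177, at 6.52, 7.02 and 6.75 CPM in Pm2 (log2 difference of T4 to Pm2 -3.09 ± 0.30, SE; adjusted p = 1.36e-05, edgeR), and TTLL6B, with 139 counts in Pm2 and none in T4, at least 39.2-fold higher. CG10527 stood at 2.56, 3.21 and 2.82 CPM in Pm2 and 0.950, 0.966 and 0.576 CPM in T4. It shares 61.6% of its exon bases with an antisense RNA, whose reads there cannot be told apart. CG1572 stood at 0.145, 0.674 and 0.754 CPM in T4. CG12582 (beta-Man) had 131 counts in Pm2, 54 in neurons and none in T4. Its Pm2 counts were uneven, since all 3 glycan enzymes together summed to 0.640, 2.00 and 0.114 CPM in the Pm2 libraries. Between Pm2 and neurons it was not called (adjusted p = 0.497, edgeR).

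Among all genes tested 14.5% were lower and 8.67% higher in T4 than neurons, and 20.1% and 15.5% in Pm2, and among the 97 the lower shares were 46.4% and 60.8%. By role, 7 of the 14 transporters were called lower and none higher in T4, and 11 lower and 1 (Cftr) higher in Pm2, each against neurons. Of the 7 lipid enzymes, 1 was called lower in T4 and 2 lower in Pm2, and CG3376 was called higher in Pm2. All 3 ecdysteroid kinase-like genes were called lower in Pm2 and none in T4. Of the 7 enzymes of amino acid and intermediary metabolism, 3 were called lower in T4 and 3 lower in Pm2, and none differed between T4 and Pm2 by the same test. Of the 49 genes with no role assigned, 27 were called lower and 1 higher in T4, and 32 lower and 2 higher in Pm2. These counts by role include genes that passed the filter on low counts only through the glia libraries. Among them, the transporter CG31689, the metabolic enzyme Bcat and CG15611, with no role assigned, were called lower in both T4 and Pm2. CG42764, also with no role assigned, was called lower in Pm2. Whether these groups differ from one another was not tested.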

How the data were processed

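The deposited table holds whole-number counts per gene in 12 libraries (paired reads of 100 bases, SMART-Seq v4 cDNA from 300 to 500 pg of RNA, 3 libraries per lane, per the labels). Trimmomatic 0.32, STAR 2.5.2, HTSeq 0.6.1 and the BDGP6 build are named in the submitters' processing notes; settings are not given in the sources used here. The table is called normalized, but its values are whole numbers with unequal totals (35012892 to 57811629 per library), so they were analysed as counts. Neuron columns could not be tied to single titles; their numbers are column numbers. Levels are CPM of the library total, the scale of the rule.

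The 10528 genes reaching 10 counts in 3 or more of the 12 libraries were fitted together, TMM-scaled, by group in edgeR 4.0.16 under R 4.3.3 (quasi-likelihood F test, two-sided) and called at 0.05 after Benjamini-Hochberg adjustment over that whole table. The code was tested on simulated counts. A fitted log2 difference of a gene with no count in a group depends on the prior count, so a bound is given instead: 3 counts over the group's libraries.

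Members, lists and tests were chosen with earlier results of these data known. Genes named are the 8 with the highest glia mean, 6 largest ratios, 3 nearest each threshold, up to 4 called each way per comparison, 3 most and 3 least variable in glia, neighbours within 20000 bases, and those with a name in the annotation; others complete a role group. Promoter and protein sequences were not analysed here. Alternatives were other scalings, filters and thresholds, DESeq2 1.42.0 and leaving out each library. Same-numbered T4, Pm2 and glia libraries did not deviate together (correlations of -0.0286 to 0.0247), so the numbers were not taken as pairs.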

Additional observations from a re-analysis of the deposited data

How the results depend on the processing

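The count of genes meeting the rule was 110 under TMM scaling, 103 and 81 at ratios of 20 and 50, 126 and 67 at glia means of 25 and 100 CPM, and 94 to 99 without 1 library. The median ratio of glia to the highest other population was 119, 152 under TMM scaling, 167 under median-of-ratios scaling and 100.35 to 146 without 1 glia or neuron library. Of the 97, 46 were called between T4 and neurons, 30 to 44 without 1 library and 46 by DESeq2; 64 between Pm2 and neurons, 56 to 62 without 1 library and 61 by DESeq2; and 28 between T4 and Pm2, 23 to 30 without 1 library and 31 by DESeq2. Fitting only the libraries compared gave 34, 57 and 20 calls, among fewer genes passing the filter. With the replicate number as a block, T4 against Pm2 gave 20 calls, as without it; the numbers are not known to pair the libraries. Causes of these shifts were not tested. Counts below about 10 in a group limit the genes nearest 0, where a ratio rests on few reads.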
